A study of Oncorhynchus mykiss with 28 samples.

Results

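The eggs described here came from 8 of the 28 rainbow trout (Oncorhynchus mykiss) females with array data. These 8 females had all ovulated early under a manipulated photoperiod (PM). The 4 failing females had under 10% eyed embryos at 190 degree-days, and the 4 good females had at least 80% normal alevins at yolk-sac resorption (YSR), at 550 degree-days. The other 6 PM females fell between these limits and are called intermediate. Egg quality measured after fertilization chose the groups, and no array value did. The eggs of each female were unfertilized when RNA was taken, were of an autumn-spawning strain and, for all PM females, were collected in 2003. The same data hold 4 females with natural ovulation (N, 2003) and 10 females injected with a GnRH analog for hormonal induction (HI, 2004). The paper describes more HI arrays than these 10. Each array held RNA from pooled eggs of 1 female, so that the female was the replicate, and the array was a nylon filter of trout cDNA clones hybridised with radioactively labelled cDNA.

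An unfertilized fish egg carries the maternal mRNA laid down during oogenesis, and this stock supports cleavage until the embryo's own genome is transcribed. The eyed stage, when the pigmented eyes of the embryo show through the egg envelope, is the usual hatchery checkpoint for survival of early development. A loss before that stage is called an early failure here. Survival was counted per egg used for fertilization and no fertilization rate is given, so unfertilized eggs cannot be told apart from early embryo loss. The comparison asks which transcripts of the egg differed between females whose eggs failed early and females whose eggs developed.

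The failing females had 0, 6, 6 and 8% eyed embryos and 0, 0.5, 3.4 and 5% normal alevins, against 90, 87, 89 and 99% eyed embryos and 82.5, 82.8, 92.9 and 93.8% normal alevins in the good females. The groups are thus far apart on both measures. Among the alevins that the failing females did give, 50, 7.7 and 25% were malformed in replicates 2 to 4, with no value for replicate 1, against 2, 2.5, 4.7 and 2.8% in the good females. Few eggs of the failing females gave alevins, so their malformed shares rest on few fish, whose number is not given. Good replicate 13 had more normal alevins (92.9%) than eyed embryos (89%) in the labels. The intermediate females had 39 to 98% eyed embryos (median 70.5%) and 29 to 71.5% normal alevins (median 38.9%). One intermediate female, replicate 8, had 98% eyed embryos and only 40.3% normal alevins, so its losses came after the eyed stage.

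**Figure D1:**
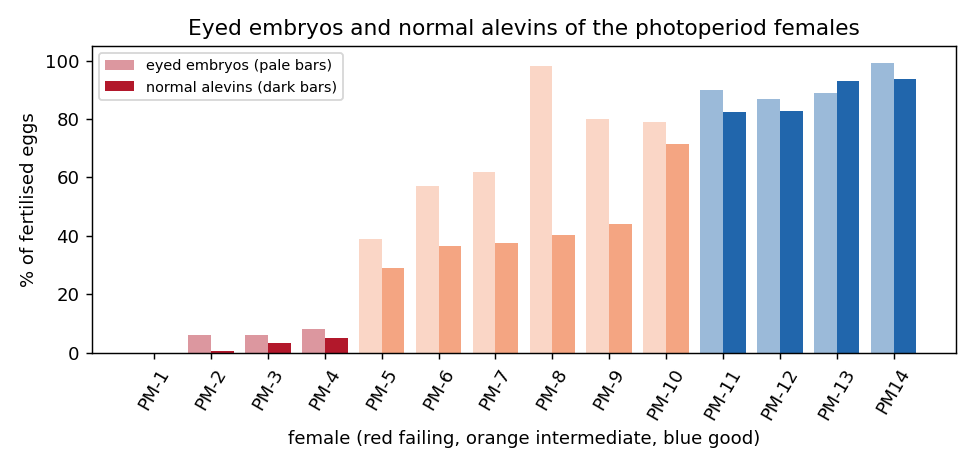
Percentage of eyed embryos (pale bars) and of normal alevins at YSR (dark bars) for each of the 14 PM females, with failing females in red, intermediate females in orange and good females in blue. The failing females reached at most 8% eyed embryos, and the good females at least 87%.

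The signal of a clone is its spot intensity over the median of its array, so that 1 is the median clone and a difference is relative to that median. A signal of 0 was treated as missing. Of 9023 clones, 8146 to 8518 had a signal above 0 on the failing arrays and 8307 to 8655 on the good arrays, a difference of -161.5 clones that did not exceed the spread between females (two-sided exact permutation test, p = 0.2286). The interquartile range of log2 signal was 1.63 ± 0.13 on the failing arrays and 1.54 ± 0.08 on the good arrays (SD, n = 4 each), a difference of 0.095 (two-sided exact permutation test, p = 0.2571). With 4 arrays against 4, the smallest p of this test is 0.0286. Failing replicate 4 carries the same female number in the labels as an N sample. The number of called clones without it is given below, and differences of single genes include it unless stated. No named clone of the arrays belonged to the lists of oocyte, follicle cell or red blood cell markers, so that the labelled material could not be checked against its markers.

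Few clones passed the test between failing and good eggs. Of 8172 clones tested, 2 were higher and 2 were lower in failing eggs at a Benjamini-Hochberg adjusted p under 0.05 from limma, which is 0.0489% of the clones, 0.0245% in each direction. At an unadjusted p under 0.05 there were 1319 clones (16.1%), of which 760 were higher (9.3%) and 559 lower (6.84%). In 659 of the 8030 clones with a value on all 8 arrays (8.21%) the groups did not overlap, with failing eggs above good eggs in 402 (5.01%) and below in 257 (3.2%). The difference was positive for 58.4% of clones, its median over all clones was 0.05 on the log2 scale, 305 clones (3.73%) differed by 0.5 or more in either direction, and 3 clones (0.0367%) differed by 1 or more. At an adjusted p under 0.1, a threshold added after the data were seen, 11 clones were higher and 11 were lower (0.269% of clones, 0.135% in each direction). The 4 calls depended on single females. No clone was called without failing replicate 1, 2 or 3 or without good replicate 11, 12 or 13, and 10 clones, among them all 4, were called without failing replicate 4. Without good replicate 14, 4 clones were called, of which 2 were the same.

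**Figure D2:**
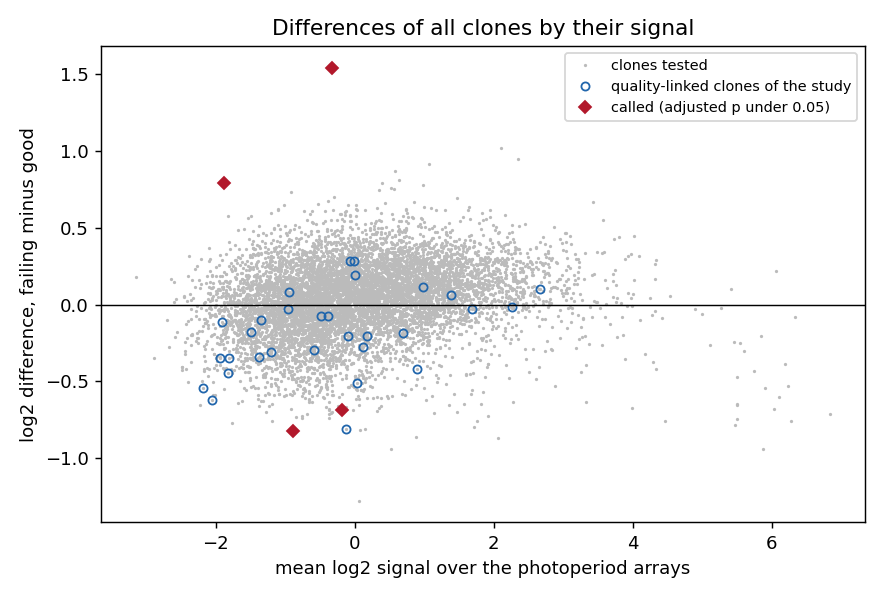
Difference in log2 signal between failing and good PM eggs against the mean log2 signal over the 14 PM arrays, for the 8172 clones tested (grey), the 30 quality-linked clones of the study (blue circles) and the 4 called clones (red diamonds). The called clones lie between -0.82 and 1.54, and the clone with the lowest difference, -1.27, was not called. Of the 30 quality-linked clones, 23 lie below 0.

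The 4 called clones carry no gene name in the sources used here and are given by their array identity. The clone tcbk0020.h.24 had the largest difference of all clones tested. Its signal was 1.79, 1.25, 1.57 and 1.03 in failing eggs and 0.506, 0.342, 0.588 and 0.502 in good eggs. Every failing female was above the array median and every good female below it. The difference was 1.54 ± 0.26 on the log2 scale (SE), or 2.91-fold (adjusted p = 0.0402 from limma). The intermediate females ranged from 0.508 to 1.48 with a median of 0.771, which overlapped both the good and the failing range. Outside the photoperiod females the same clone had 0.601 to 1.43 in HI eggs of low quality, 0.537 to 1.23 in good HI eggs and 0.55 to 0.798 in N eggs. The HI female that failed before the eyed stage, replicate 1, had 0.601. The difference tcbk0020.h.24 showed in HI eggs was 0.18, and the PM difference was not called as different from it (limma, adjusted p = 0.237).

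The second clone that was higher in failing eggs, tcbk0017.j.09, was dim on all arrays, with a mean signal above that of only 2.5% of the clones. It had a signal of 0.405, 0.436, 0.475 and 0.347 in failing eggs, against 0.212, 0.24, 0.248 and 0.258 in good eggs. The groups did not overlap, and the failing eggs were higher by 0.79 ± 0.14 (SE, adjusted p = 0.0465 from limma). In contrast to the first clone, intermediate eggs (0.181 to 0.268, median 0.231) were at the level of good eggs. It was also the only clone called between failing and intermediate eggs, with a difference of 0.86 (limma, adjusted p = 0.0185). That call was lost after quantile normalization (adjusted p = 0.186) and without failing replicate 1, 2 or 3 or intermediate replicate 5, 6, 8 or 10. Its signal in N eggs, from 0.249 to 0.389, overlapped both PM groups.

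Both clones that were lower in failing eggs were low in intermediate eggs as well. The clone 1RT75B08_D_A04 had a signal of 0.769, 0.656, 0.709 and 0.817 in failing eggs and 1.37, 1.22, 1.09 and 1.06 in good eggs. All good females were thus above the array median and all failing females below it, with a difference of -0.68 ± 0.12 (SE, adjusted p = 0.0402 from limma). Intermediate eggs ranged from 0.768 to 0.914 with a median of 0.819, and they too were lower than good eggs (difference -0.52, adjusted p = 0.0237 from limma). That second call was lost without intermediate replicate 5 or good replicate 11 or 12, and after adjustment for array spread (-0.45, adjusted p = 0.0589). Good HI eggs, at 0.878 to 0.96, all lay below the array median and below every good PM female. The N eggs, all of high quality, had 0.753 to 1.33 and overlapped both the failing and the good PM range. Unlike in PM eggs, 1RT75B08_D_A04 was higher in HI eggs of low quality (0.803 to 1.29) than in good HI eggs by 0.12, which did not pass the test. The PM and HI differences were not called as different (limma, adjusted p = 0.154).

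The clone tcay0029.j.06 had a signal of 0.495, 0.511, 0.357 and 0.544 in failing eggs, against 0.785, 1.03, 0.833 and 0.708 in good eggs. The groups did not overlap and differed by -0.82 ± 0.14 (SE, adjusted p = 0.0402 from limma). Intermediate eggs ranged from 0.417 to 0.492 with a median of 0.451 and were lower than good eggs by 0.89 (adjusted p = 0.0119 from limma), a call that held without any single female of the intermediate and good groups. The N eggs, all of high quality, had 0.279 to 0.525 and thus lay with the failing PM eggs rather than with the good ones.

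**Figure D3:**
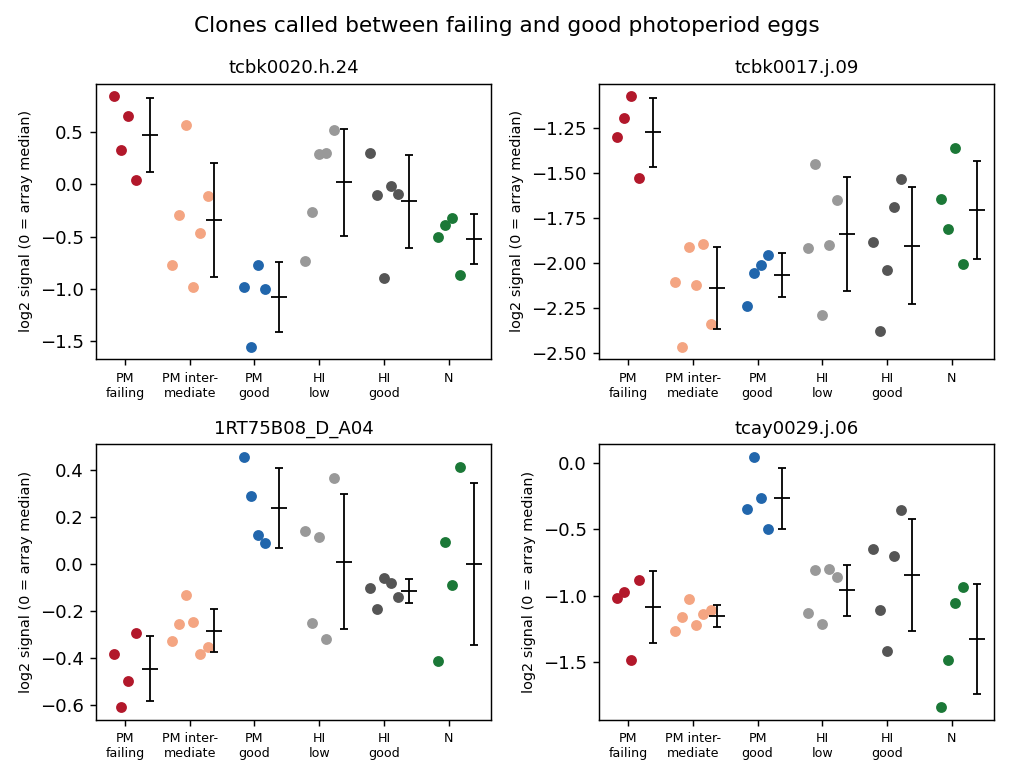
Log2 signal of the 4 called clones for each female in the 6 groups (PM failing, PM intermediate, PM good, HI low, HI good, N), with 0 as the array median, and the mean and SD of each group beside its points. Failing and good PM females do not overlap in any of the 4 clones, which were selected for their PM difference. The HI low and HI good females overlap in each. No PM difference was called as different from the HI difference.

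The named clones are those that the study listed as differing with the type of ovulation or as linked to egg quality. The study chose both lists on these samples, the 8 females included, so that their direction is not independent evidence. None of the 55 listed clones tested was called between failing and good eggs. Of the 30 quality-linked clones tested, 23 were at lower and 7 at higher signal in failing eggs, with a median difference of -0.18 against 0.05 for all clones, 9 of them lower and 1 higher at an unadjusted p under 0.05 (against 6.84 and 9.3% of all clones). In 5 of them failing eggs lay below good eggs without overlap and in 1 above, against 3.2 and 5.01% of all clones with a value on all 8 arrays. Of the 25 clones of the ovulation list tested, 17 had a higher and 8 a lower signal in failing eggs (median 0.16). At an unadjusted p under 0.05 there were 2 higher and 1 lower, against 9.3 and 6.84% of all clones. None of the ovulation list was without overlap, against the same 5.01% above and 3.2% below. The study took the gene names from the best protein match of each trout sequence, so that they rest on sequence similarity. The functions given below are known mainly from mammals.

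Among the transcripts for secreted and plasma proteins, apolipoprotein B (APOB), the structural protein of plasma lipoproteins, came closest to a call. Its signal was 0.996, 0.763, 0.577 and 0.882 in failing eggs, against 1.32, 1.15, 1.4 and 1.71 in good eggs. Every failing female was below the array median and every good female above it. The difference of -0.81 ± 0.16 (SE) did not pass the test (adjusted p = 0.0746 from limma). It passed when arrays were scaled to the same spread (adjusted p = 0.0495) or weighted by their quality (adjusted p = 0.0395), and missed in the other 11 settings and in each of the 8 fits without 1 female, with an adjusted p of up to 0.281. The intermediate eggs were at the level of the failing eggs for APOB, from 0.659 to 0.88 with a median of 0.762, and were lower than good eggs by 0.84 (adjusted p = 0.016 from limma). This call remained without any single female, with quantile normalization and after adjustment for array spread, at adjusted p up to 0.0459. In HI eggs APOB was 0.08 higher at low than at good quality, and the PM and HI differences were not called as different (limma, adjusted p = 0.201).

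The other plasma and matrix transcripts differed less. The liver and plasma markers APOB, APOC1 (a small apolipoprotein) and TF (transferrin, the iron carrier of plasma) were all 3 at lower signal in failing eggs, with a median difference of -0.20 and no call. APOC1 had a signal of 0.426, 0.609, 0.648 and 0.36 in failing eggs and 0.586, 0.626, 0.507 and 0.509 in good eggs, and TF had 1.02, 1.16, 1.05 and 1.04 in failing eggs and 1.38, 1.19, 0.946 and 1.46 in good eggs. The groups overlapped for both genes. The laminin chain LAMB2 differed by -0.35, or -0.09 after adjustment for array spread and -0.54 without failing replicate 4. VWF, the von Willebrand factor of blood clotting, differed by 0.10, and neither gene was near a call.

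Signalling transcripts lay mostly at lower signal in failing eggs. Growth factor signalling was represented by BMP7, a bone morphogenetic protein, TGFBR2, the type II receptor for TGF-beta, and PDGFRA, a receptor for platelet-derived growth factor. All 3 had a lower signal in failing eggs (median difference -0.18), with no call. TGFBR2 had a signal of 1.57, 1.52, 1.69 and 1.79 in failing eggs, against 2.27, 3.03, 1.57 and 2.12 in good eggs. Only good replicate 13 fell within the failing range, and the difference was -0.42 ± 0.16 (SE, adjusted p = 0.214 from limma). PDGFRA was lower in every failing female (0.345, 0.308, 0.321 and 0.335) than in any good female (0.371, 0.359, 0.378 and 0.373). The difference between the group means was small, at -0.18 on the log2 scale (limma, adjusted p = 0.418).

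The protein kinase NEK1, which acts in the DNA damage response and at cilia, had a signal of 1.01, 0.787, 0.777 and 1.08 in failing eggs and 1.3, 1.11, 1.44 and 1.32 in good eggs. The groups did not overlap, and the difference was -0.51 ± 0.13 (SE, adjusted p = 0.126 from limma). DUSP24, which the study names after a protein listed as a dual specificity phosphatase, was among the dimmest clones. Its signal was 0.242, 0.21, 0.175 and 0.242 in failing eggs and 0.271, 0.269, 0.43 and 0.381 in good eggs. It too was lower in all failing females, by 0.62 ± 0.17 on the log2 scale (SE), and missed the threshold (limma, adjusted p = 0.151). Intermediate eggs were lower than good eggs for DUSP24 by 0.66 (limma, adjusted p = 0.0387). That call was lost with quantile normalization (adjusted p = 0.0521), with the spread of the arrays as a covariate (adjusted p = 0.0826) and in 7 of the 10 fits without 1 female, those without intermediate replicate 5, 6, 7 or 10 or good replicate 12, 13 or 14.

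DAB2, an adaptor of clathrin-mediated endocytosis and of several signalling routes, ran the other way. It had a signal of 6.15, 6.3 and 4.14 in failing replicates 2 to 4 and was listed at 0 in failing replicate 1, against 4.46, 4.86, 3.67 and 4.03 in good eggs. The difference of 0.36 ± 0.15 (SE, adjusted p = 0.266 from limma) rests on 3 failing females, and with the 0 kept, as log2(value + 0.1), it was -1.09.

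CUL5, DCPS and CASZ1, transcripts of protein turnover, RNA decay and transcription, lay below the array median on the 8 arrays. DCPS and CASZ1 were dim, with a mean signal above that of only 2.92 and 0.722% of the clones, against 31.4% for CUL5. CUL5, the scaffold of a class of ubiquitin ligases, had 0.623, 0.634, 0.553 and 0.622 in failing eggs and 0.797, 0.78, 0.675 and 0.729 in good eggs. No failing female reached a good one, although the difference was only -0.29 ± 0.11 (SE, adjusted p = 0.201 from limma). DCPS, the scavenger enzyme that hydrolyses the cap left after mRNA decay, had 0.261, 0.301, 0.214 and 0.242 in failing eggs and 0.346, 0.467, 0.29 and 0.3 in good eggs. The groups overlapped in 1 failing and 2 good females (difference -0.45 ± 0.16 SE, adjusted p = 0.191 from limma). The zinc finger transcription factor CASZ1 differed by -0.55 ± 0.18 (SE, adjusted p = 0.18 from limma), with 0.22, 0.192, 0.16 and 0.234 in failing eggs and 0.222, 0.238, 0.408 and 0.333 in good eggs. The wide gap in CASZ1 came from good replicates 13 and 14.

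Of the remaining genes with the smallest p among those at lower signal, CF188, which has no described function in the sources used here, differed by -0.34 (limma, adjusted p = 0.21). FGD5 differed by -0.28 and PYC, pyruvate carboxylase of the mitochondrion, by -0.32, at adjusted p of 0.318 and 0.328 from limma. PYC was listed at 0 in good replicate 14, and its difference turned to 0.75 with the 0 kept as log2(value + 0.1).

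**Figure D4:**
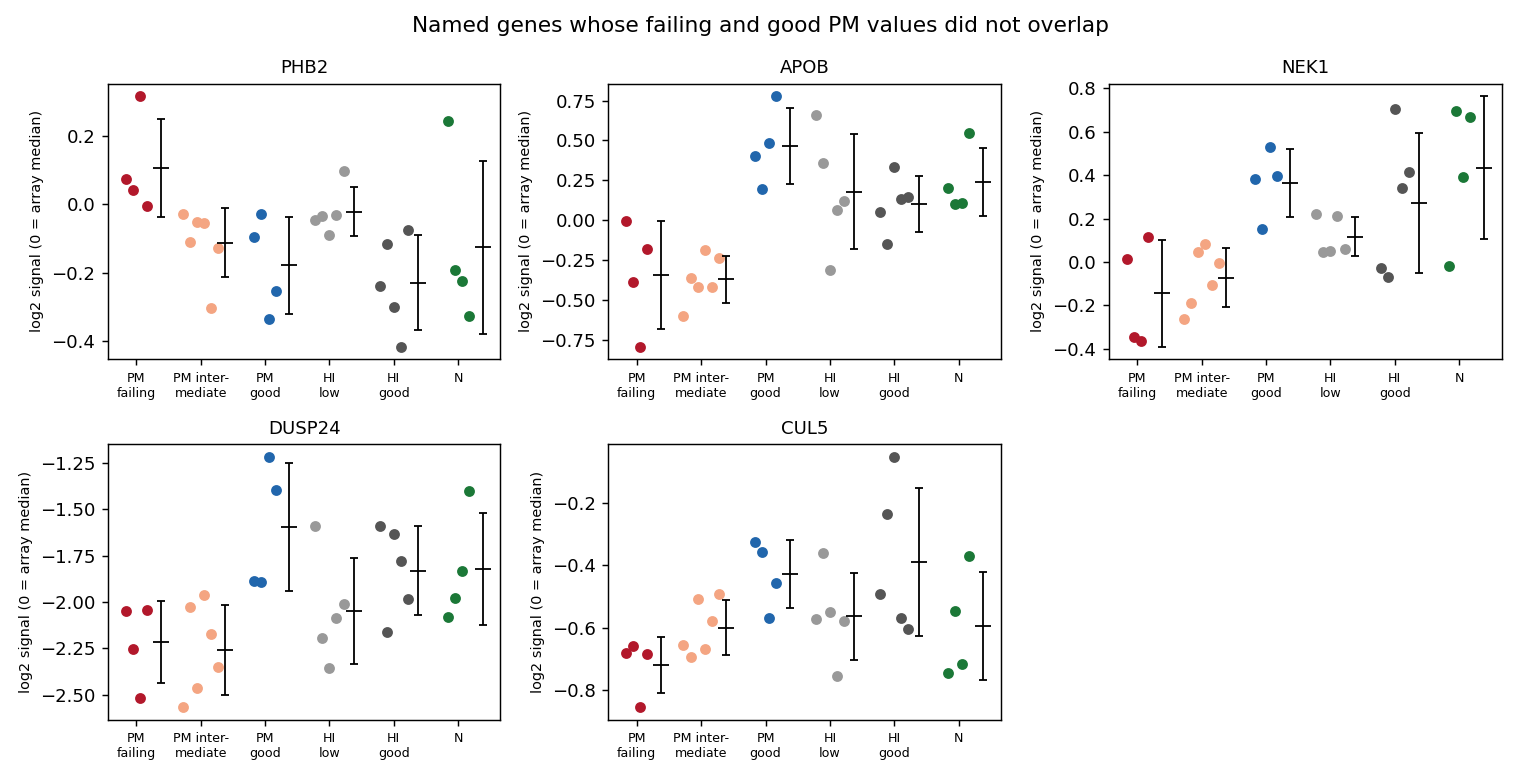
Log2 signal for each female in the 6 groups of the 5 named genes with the smallest p whose failing and good PM values did not overlap (PHB2 above, the others below in failing eggs), with the mean and SD of each group beside its points. None of the 5 passed the adjusted threshold, and in APOB, NEK1 and DUSP24 the intermediate PM females all lay below every good PM female.

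The named genes at higher signal in failing eggs had mixed roles, and none was called. The clones of mitochondria and intermediary metabolism were 3 at higher and 3 at lower signal. Prohibitin 2 (PHB2), a scaffold protein of the inner mitochondrial membrane, was the only named gene tested with all failing females above all good females. Its signal was 1.05, 1.03, 1.24 and 0.995 in failing eggs, against 0.935, 0.98, 0.792 and 0.838 in good eggs. The margin between failing replicate 4 and good replicate 12 was narrow, and the difference was 0.29 ± 0.12 (SE, adjusted p = 0.243 from limma). Intermediate eggs ranged from 0.81 to 0.981 with a median of 0.944, below every failing female. HI eggs of low quality were higher than good HI eggs by 0.21 for PHB2, which was not called (limma, unadjusted p = 0.0604, adjusted p = 0.998).

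HSPA9B, the mitochondrial chaperone of the Hsp70 family, had 4.41, 5.77, 5.92 and 3.69 in failing eggs and 3.28, 4.23, 3.9 and 3.53 in good eggs. Failing replicate 4 fell among the good females, and the difference was 0.38 ± 0.16 (SE, adjusted p = 0.269 from limma). In HI eggs the sign of HSPA9B was opposite (-0.18), and the PM and HI differences were not called as different (limma, adjusted p = 0.36). After adjustment for array spread the PM difference was 0.18. RPN2, a subunit of the enzyme that attaches N-glycans to secretory proteins, was among the brightest named clones, with 9.6, 6.45, 9.53 and 12.5 in failing eggs and 6.69, 6.17, 7.09 and 9.7 in good eggs. The females of both groups overlapped (difference 0.34 ± 0.19 SE, adjusted p = 0.381 from limma). Without failing replicate 4 the difference was 0.52 for HSPA9B and 0.20 for RPN2.

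GMCL1, the counterpart of the Drosophila gene germ cell-less, differed by 0.28, RBM5, a regulator of splicing, by 0.31 and OSBPL5, an oxysterol-binding protein, by 0.48, at adjusted p of 0.325, 0.351 and 0.393 from limma. DBNL, an actin-binding protein, differed by 0.27, or 0.12 after adjustment for array spread, and HCFC1, a cofactor of transcription, by 0.19, at adjusted p of 0.406 and 0.395 from limma. HCFC1 had the opposite sign in HI eggs (-0.28, limma, unadjusted p = 0.0129, adjusted p = 0.998). Its PM and HI differences were not called as different (limma, adjusted p = 0.256). PGH2, the inducible prostaglandin synthase of ovulation, differed by 0.17, and the ribosomal protein transcripts RPL24 and RL10 by 0.22 and 0.20, at adjusted p of 0.646, 0.69 and 0.726 from limma. The medians of the 2 ribosomal clones were sensitive to the spread of the arrays, being 0.21 as reported and 0.0022 after adjustment for array spread.

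**Figure D5:**
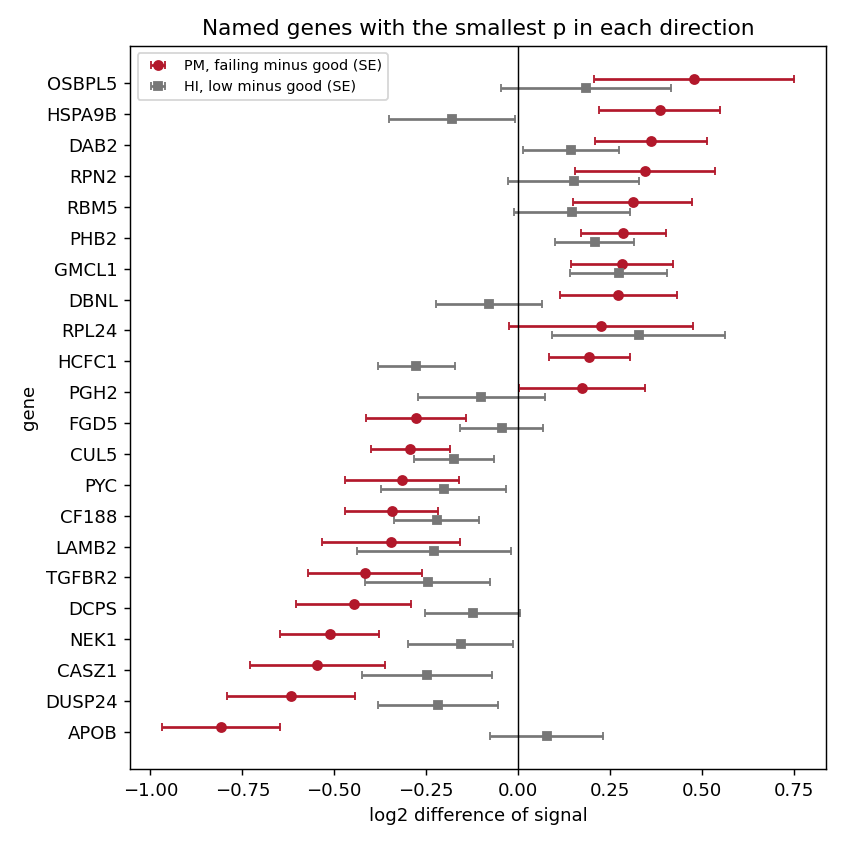
Difference in log2 signal with its SE for the named genes with the smallest p in each direction, in PM eggs (failing minus good, red circles) and in HI eggs (low minus good, grey squares). APOB at -0.81 is the largest PM difference drawn, and its HI difference is 0.08.

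Taken by role, no group of named clones had a called member. The lipid and lipoprotein clones were 2 at higher and 3 at lower signal in failing eggs (median -0.11), and the transcription and chromatin clones 4 and 4 (median 0.05). RNA processing was 2 and 2 (median -0.08), protein folding and turnover 1 and 3 (median -0.17), plasma, matrix and adhesion 2 and 3 (median -0.20), and mitochondria and intermediary metabolism 3 and 3 (median 0.07). The median over all clones was 0.05.

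Intermediate eggs differed from good eggs at more clones than failing eggs did. Of the same 8172 clones, 59 were higher and 172 lower in intermediate eggs (limma, adjusted p under 0.05), which is 2.83% of clones, 0.722% higher and 2.1% lower. At an unadjusted p under 0.05 there were 1763 clones (21.6%). The group of 6 intermediate females is larger than the group of 4 failing females, and both comparisons share the 4 good arrays. The count varied from 13 to 377 when 1 female was left out. It was 13, 52, 75 and 377 without intermediate replicates 5, 6, 7 and 8 in that order, 1.8% of the clones without replicate 9, 125 without replicate 10, and 56, 19, 102 and 90 without good replicates 11, 12, 13 and 14. After adjustment of each clone for array spread it was 50. Between failing and intermediate eggs 1 clone was called (0.0122%), and 282 (3.45%) had an unadjusted p under 0.05. These 2 groups differ in eyed embryos (0 to 8% against 39 to 98%).

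HI females offered a comparison of low and good egg quality on arrays that the PM contrast does not use, though year and treatment cannot be told apart between the 2 sets. Of the 5 HI females of low quality, with 2 to 39.8% normal alevins, only 1 had failed before the eyed stage (3% eyed embryos), and the 5 good HI females had 89.5 to 95.4% normal alevins. None of 8376 clones was called between them with limma (0%), and 326 (3.89%) had an unadjusted p under 0.05, with a lowest adjusted p of 0.998. None of 8162 clones had a PM difference called as different from its HI difference by limma (0%), with 1055 (12.9%) at an unadjusted p under 0.05 and a lowest adjusted p of 0.154. The 4 called clones had a median size of 0.81 in PM eggs and 0.12 in HI eggs, with the same sign in 3 of 4, against medians of 0.15 and 0.09 over all clones. They were selected for their PM difference, so that its larger size in PM eggs follows from the choice. Of the 22 clones at an adjusted p under 0.1, 7 had the same sign in HI eggs (31.8%, against 43.6% of all clones), and none of the 22 reached an unadjusted p under 0.05 there. The 30 quality-linked clones had a median difference of -0.18 in HI eggs too, but these females were among those on which the list was chosen.

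The differences moved with the brightness of the clones and the spread of the arrays. Across the 8172 clones, which are not independent replicates, the difference between failing and good eggs correlated with the mean log2 signal (r = 0.205), and after quantile normalization this was 0.0393. With array interquartile range added to the limma fit, no clone was called (lowest adjusted p = 0.137), and the differences of the 4 called clones became 1.41, 0.73, -0.61 and -0.73 in the order described. The median of the quality-linked clones was then -0.11, with 23 again at lower signal. The part of array spread in these differences was not tested further. A lower signal in pooled eggs cannot tell less transcript in every egg from fewer eggs holding it.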

How the data were processed

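Arrays of unfertilized eggs of 28 females were analysed, and groups came from the sample labels. The deposited values are spot intensities on a linear scale, which the authors had corrected for spotted DNA, after leaving out weak spots, and scaled to each array's median. How duplicate spots were combined and what a value of 0 marks are not given in the sources used here. The table held 9216 rows, from which 128 vector, 64 water and 1 single-sequence row were left out, and 9023 clone rows remained. Values of 0 (6.79% of clone values on the 8 arrays) were treated as missing, and the median of the remaining values is 1 on each array, so no scaling was applied. Clones with at least 3 values in each of the failing and good groups entered the test as log2 signal, without a pseudocount.

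One fit of 3 group means over the 14 PM arrays was made with limma 3.58.1 in R 4.3.3 (Benjamini-Hochberg adjusted p under 0.05). The HI contrast and its difference from the PM contrast came from 1 fit of 6 group means over 28 arrays. The number of arrays limits the precision. All tested clones of the study's 2 lists entered the counts, but only some are described singly. The descriptions cover the 12 named clones with the smallest p in each direction and the 2 unnamed ones in each direction. Some of these genes, 1 of the 12 in each direction included, are not reported here. The members and lists were chosen with earlier results of these data known. The gene lists of translation factors, proteasome, respiratory chain, histones, cytoskeleton, egg proteases, and apoptosis had no named clone, and those of chaperones (HSPA9B), prohibitins (PHB2), prostaglandin synthesis (PGH2), ubiquitin (CUL5 and NTAN1, differences -0.29 and -0.16) and growth factors (BMP7 and TGFBR2, -0.08 and -0.42) had at most 2. Cyclin A2, the study's PCR normalizer, was not analysed here. The tests were checked on simulated data. Alternatives were other normalizations, filters, variance models, array sets, weights, slopes on egg quality and leaving out each female. Figures were drawn with matplotlib.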

Additional observations from a re-analysis of the deposited data

Results flagged for a closer look

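In 4 of the 88 groups of named-clone or array values of at least 4 females, 1 female stood apart from the rest by Dixon's test, where chance gives about 4.4. CUL5 in failing replicate 3 was at -0.85 on the log2 scale, with the next female at -0.68. GMCL1 in good replicate 14 was at -0.48, next to -0.09. PHB2 in intermediate replicate 9 was at -0.30, next to -0.13, and RPN2 in intermediate replicate 7 was at 3.55, next to 3.12.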

How the results depend on the processing

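The 4 calls between failing and good eggs depended on the processing. Their number was 8 with arrays scaled to the same median absolute deviation, 1 with only the 8 failing and good arrays, 2 without the 25% of clones with the lowest signal, 24 with log2(value + 0.1), which left out tcbk0020.h.24 (adjusted p = 0.073), and 24 with array quality weights. It was 0 with the interquartile range as a covariate, with unlogged signal, with a mean-variance trend and robust moderation, without moderation, and with slopes on eyed embryos or normal alevins in place of groups, and ranged from 0 to 10 when 1 female was left out. It was 3 with all 28 arrays in the fit, of which only tcbk0020.h.24 was the same (the other 3 had adjusted p of 0.0728 to 0.0774 from limma). It was 4 with quantile normalization, 3 of them the same clones, and 4 without good replicate 14, of which 2 were the same. In the 82 values computed for the 4 clones, which leave out the slopes and 2 dim clones without the lowest 25%, the sign was kept and 50 no longer passed. Of 490 values of the named clones not called, 486 kept sign and side of the threshold. All these clones but APOB had an adjusted p of at least 0.126 in the main limma fit, so keeping their side shows little. APOB passed in 2, DAB2 reversed to -1.09 and PYC to 0.75 with log2(value + 0.1). The count between intermediate and good eggs was 371 with quantile normalization and 50 with the covariate, and 13 to 377 without 1 female. The count between failing and intermediate eggs was 0 with quantile normalization and 0 to 1 without 1 female. The difference in interquartile range was 0.05 to 0.15, and that in clones above 0 was -224.2 to -100.2, without 1 female. These settings for intermediate eggs were chosen after seeing the data. No paired analysis was possible because the failing and good groups are different females with no pairing in the labels. The causes were not tested.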
